A study of Mus musculus with 6 samples.

Results

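The pituitary hormone receptors examined here were the 4 genes Fshr, Lhcgr, Prlr and Ghr, which encode the receptors for follicle-stimulating hormone (FSH), luteinizing hormone (LH), prolactin and growth hormone. They were taken by gene symbol, and all 4 were found once each among the 16300 genes of the table analysed. Transcripts had been measured by RNA-seq in primary mouse granulosa cell (GC) cultures, with 3 libraries from control cultures kept in medium alone and 3 from cultures given dihydrotestosterone (DHT), an androgen that is not converted to estrogen, at 25 nM for 24 h. All GCs came from wild type C57BL/6J mice of 8 to 9 weeks, taken on the day of estrus by follicle puncture, held 48 h in medium with 10% serum and starved of serum for 4 h, and each library was made from the pooled cells of 5 mice, with 3 such pools for each treatment. The labels name granulosa cells as the cell type but ovary as the tissue, and their extraction text speaks of whole ovary.

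GCs surround the oocyte and supply it with steroids and growth signals. FSH and LH act on them through G protein-coupled receptors with a large leucine-rich ectodomain that raise cAMP. Fshr is present from early follicle growth, whereas Lhcgr is gained by mural GCs as the follicle matures and readies them for the ovulatory LH surge. Prolactin and growth hormone bind single-pass class I cytokine receptors that carry JAK2 and signal mainly through STAT5, and in rodents prolactin signalling maintains the corpus luteum. Each comparison below asks whether 24 h of DHT changed the transcripts of these receptors or of the genes around them.

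DHT-treated GCs had more Prlr and Ghr transcript than control GCs, and Fshr did not differ detectably. Prlr was 1.89-fold and Ghr 1.36-fold higher, and both passed an adjusted p of 0.05. Lhcgr was 2.61-fold higher by its means on the log scale, the steepest difference of the 4, but its control libraries were so far apart that it did not pass. The values below are normalized read counts, that is reads divided by the size factor of the library.

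All 4 genes lie in 2 pairs on 2 chromosomes of GRCm38. Lhcgr (chr17:88716481-88791990, minus strand) and Fshr (chr17:88984952-89200675, minus strand) are 193 kb apart. Ghr (chr15:3317760-3583492, minus strand) and Prlr (chr15:10177238-10349180, plus strand) share chromosome 15. RefSeq windows from 250 bases before to 50 after a transcription start were held for all 4, with 1 window each for Fshr and Lhcgr, 2 for Ghr and 3 for Prlr. The sequences below show the upstream part of 1 window for each receptor, 5′ to 3′ on the strand of the gene, with the letters that matched a searched motif in capitals. For Prlr the window shown was the only 1 of 3 with a match, and for Ghr the only 1 of 2.

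Lhcgr, chr17:88791998-88792264, minus strand: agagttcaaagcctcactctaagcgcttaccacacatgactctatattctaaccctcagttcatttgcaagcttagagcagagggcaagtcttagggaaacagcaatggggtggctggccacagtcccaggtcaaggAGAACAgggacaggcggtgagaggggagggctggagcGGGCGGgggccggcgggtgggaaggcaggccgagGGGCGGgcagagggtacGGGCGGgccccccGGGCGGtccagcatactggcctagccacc
Fshr, chr17:89200676-89200925, minus strand: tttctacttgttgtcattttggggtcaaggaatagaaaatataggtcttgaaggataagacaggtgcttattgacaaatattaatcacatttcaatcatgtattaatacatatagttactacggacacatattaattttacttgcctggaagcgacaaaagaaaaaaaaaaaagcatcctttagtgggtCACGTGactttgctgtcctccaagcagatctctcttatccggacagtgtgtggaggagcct
Prlr, chr15:10223656-10223905, plus strand: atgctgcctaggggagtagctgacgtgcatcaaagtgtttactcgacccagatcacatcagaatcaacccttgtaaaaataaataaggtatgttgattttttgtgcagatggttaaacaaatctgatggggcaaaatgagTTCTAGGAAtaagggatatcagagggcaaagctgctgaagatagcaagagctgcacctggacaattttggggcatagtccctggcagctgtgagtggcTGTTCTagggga
Ghr, chr15:3583353-3583602, minus strand: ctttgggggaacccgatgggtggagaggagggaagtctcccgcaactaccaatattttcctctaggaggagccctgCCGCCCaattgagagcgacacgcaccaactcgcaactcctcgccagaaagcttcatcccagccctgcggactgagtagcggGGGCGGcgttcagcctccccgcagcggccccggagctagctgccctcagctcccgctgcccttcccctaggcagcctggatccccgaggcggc

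The Lhcgr stretch ran on to position 17 after the start, because the study's chromatin immunoprecipitation primers at the Lhcgr promoter enclose that end. The forward primer, gagaggggagggctggag, covered positions -95 to -78 and the reverse primer, ggtggctaggccagtatgc, positions -2 to 17, a product of 112 bases. TGTTCT is 1 arm of the palindromic androgen response element. It was matched at -113 in Lhcgr on the strand opposite to that printed, outside that product, and at -12 in Prlr on the printed strand. This hexamer was in 19.0% of the 32851 mouse windows of the same length, on either strand. The full palindromic element, both arms with a 3-base spacer and no mismatch, was in 0.00913% of the windows and in none of the 7 windows of the receptors, which says only that these letters are not in these stretches.

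The other matches differed between the receptors. GGGCGG, the GC box bound by Sp1 and Sp3, stood at -76, -42, -25 and -12 in Lhcgr. In Ghr it stood at -93 and, on the strand opposite to that printed, at -174, and 35.7% of all windows held it. CACGTG, an E-box, stood at -61 in Fshr and in 7.15% of windows. TTCNNNGAA, the spacing bound by STAT5, stood at -110 in Prlr as TTCTAGGAA and in 8.30% of windows. Both strands were searched for each motif, and no matches overlapped each other in these windows. The windows were 64.0% G and C in Lhcgr, 67.0% in Ghr, 45.7% in Prlr and 40.7% in Fshr. The Prlr stretch lies inside the gene span and outside annotated exons, at an internal start, and 140 bases of the Ghr stretch fall in an exon of a retained-intron transcript of Ghr.

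Prlr was the most clearly raised of the 4 receptors. Control libraries held 3610.5, 3783 and 4462 normalized counts of Prlr and DHT libraries 7277, 7068 and 8054. Every DHT library was above every control library, and the gap between the groups was wider than the spread within either. The means were 3952 ± 449.9 in control and 7467 ± 519.7 in DHT (SD, n = 3 each). The log2 fold change was 0.92 ± 0.079 (SE), a 1.89-fold rise with a 95% interval of 1.67 to 2.14, at an adjusted p of 0.000199 in limma. It ranked 250 of 16292 genes by size of rise. The change fell just short of a log2 fold change of 1, and it passed that limit, at 1.01, when control replicate 3 was left out. Prlr makes a long form and short forms of the receptor, and the gene-level count does not tell them apart.

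Ghr also rose, by a smaller step. Control libraries held 2791, 2832 and 2776 normalized counts of Ghr, and DHT libraries held 3462, 4097 and 3891. The control libraries were nearly equal, and all 3 DHT libraries stood above them. Group means were 2800.0 ± 29.0 in control and 3817 ± 324.0 in DHT (SD, n = 3 each). The log2 fold change was 0.44 ± 0.059 (SE), or 1.36-fold with a 95% interval of 1.24 to 1.49, at an adjusted p of 0.00169 in limma. The full-length receptor and the soluble binding protein arise from this gene in mice, and their transcripts were counted together.

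Fshr stayed at a similar level. Control libraries held 139.5, 143 and 168 normalized counts of Fshr and DHT libraries 159, 143 and 135. The groups overlapped, and the lowest and middle values of each were close. The means were 150.1 ± 15.3 in control and 145 ± 11.995 in DHT (SD, n = 3 each). The log2 fold change was -0.04 ± 0.12 (SE), with a 95% interval of -0.32 to 0.24, at an adjusted p of 0.867 in limma. A fold outside 0.799 to 1.18 lay beyond that interval. The Fshr libraries rested on 124 to 181 reads each.

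Lhcgr was rare and uneven. Control libraries held 32.7, 12.1 and 63.9 normalized counts of Lhcgr and DHT libraries 68.5, 74.2 and 95.8. Each DHT library was above each control library, but control replicate 3 came within a few counts of DHT replicate 1. These values stood for 33, 13 and 69 reads in control and 70, 68 and 88 in DHT. The exact Poisson 95% intervals of the control reads were 22.7 to 46.3, 6.92 to 22.2 and 53.7 to 87.3, and they did not overlap one another. The spread among control libraries was thus larger than counting error, the only error these intervals cover. In normalized counts the interval of control replicate 3 was 49.7 to 80.9. It overlapped those of DHT replicates 1, 2 and 3, at 53.4 to 86.5, 57.6 to 94.0 and 76.8 to 118.0. That control replicate 3 was below the DHT libraries is thus within counting error.

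The Lhcgr means were 36.2 ± 26.1 in control and 79.5 ± 14.4 in DHT (SD, n = 3 each). On the log2 scale the SD was 1.16 in control and 0.25 in DHT. The log2 fold change was 1.38 ± 0.48 (SE), or 2.61-fold with a 95% interval of 1.22 to 5.57, and the adjusted p was 0.110 in limma. This SE and interval rest on a variance that limma drew toward that of genes of similar intensity. For Lhcgr that variance is smaller than the one of these libraries alone, so the interval is narrower than their own spread would give. It ranked 70 of 16292 genes by size of rise but 2818 by p. Without control replicate 3 the log2 fold change was 1.92 at an adjusted p of 0.0101, and without control replicate 2 it was 0.77 at 0.181. Whether Lhcgr passed thus depended on control replicate 3.

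**Figure D1:**
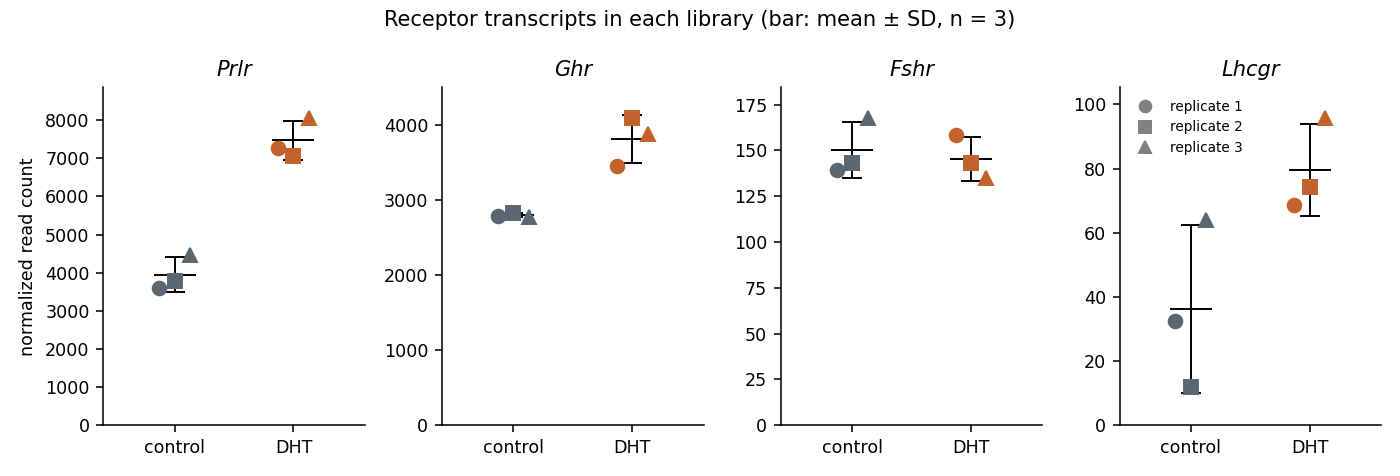
Normalized read counts (y axis, from 0, on a separate scale for each receptor) of Prlr, Ghr, Fshr and Lhcgr in the 3 control and 3 DHT libraries (x axis), with symbols for the replicates and bars for the mean ± SD. The groups are apart for Prlr and Ghr, mixed for Fshr, and apart but close for Lhcgr, whose control libraries run from 12.1 to 63.9.

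Across all genes, 11.2% passed an adjusted p of 0.05, 6.52% upward and 4.66% downward, and 1.31% also had an absolute log2 fold change above 1, 0.908% upward and 0.399% downward. Of the 4 receptors, Prlr and Ghr passed the first limit, both upward, and none passed both limits. All DHT libraries were above all control libraries for Prlr, Ghr and Lhcgr, a pattern that 15.9% of all genes showed, and 30.6% of genes had groups that did not overlap in either direction. For a single gene the exact two-sided permutation test over the 6 libraries gave p = 0.1 for Prlr, Ghr and Lhcgr, which is the smallest it can give with 3 against 3, and 0.6 for Fshr. The libraries held between 36111177 and 41928585 reads on genes. The p-values measure the spread between libraries of pooled mice, and whether a control and a DHT library shared a pool is not stated in the sources used here.

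**Figure D2:**
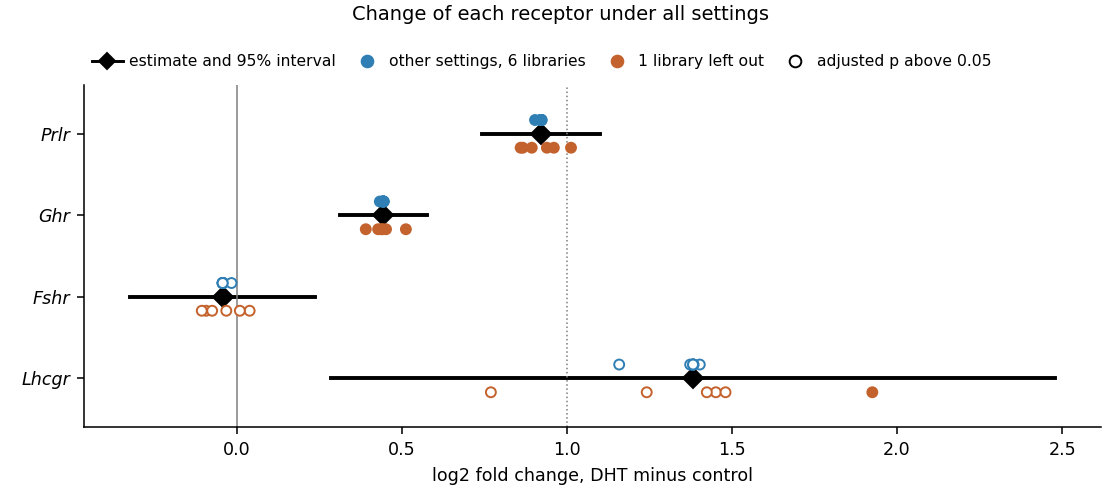
Log2 fold change of each receptor, DHT minus control (x axis), with its 95% interval (black), the estimates under 8 other settings with all 6 libraries (blue) and those with 1 library left out (orange), where open circles have an adjusted p above 0.05 and the dotted line marks a log2 fold change of 1. Prlr stays between 0.86 and 1.01 and Ghr between 0.39 and 0.51, Fshr falls on both sides of 0, and Lhcgr runs from 0.77 to 1.92 when a library is left out.

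The receptors were compared with each other in all 6 pairs by the per-library difference of their log2 values. The Prlr log2 fold change exceeded that of Ghr by 0.48 ± 0.13 and that of Fshr by 0.96 ± 0.11 (SE over libraries). Ghr exceeded Fshr by 0.49 ± 0.16. In these 3 pairs and for Fshr against Lhcgr (-1.43 ± 0.65) the differences in DHT libraries did not overlap those in control libraries, and the exact permutation p was 0.1, the smallest the design allows, or 0.15 after adjustment over the 6 pairs. Lhcgr could not be separated from Prlr (Prlr minus Lhcgr -0.46 ± 0.62, exact permutation p = 0.7, adjusted 0.7) or from Ghr (Ghr minus Lhcgr -0.94 ± 0.69, exact permutation p = 0.3, adjusted 0.36). With 3 libraries a group this permutation test cannot go below 0.1 for any pair.

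Per length, the cytokine receptors were far above the gonadotropin receptors. Levels are given here as reads per kilobase of annotated exon, scaled to the reads on genes in the library (RPKM). Ghr was at 8.04 ± 0.13 RPKM in control and 10.7 ± 0.84 in DHT, and Prlr at 6.70 ± 0.70 and 12.4 ± 0.83 (SD, n = 3 each). Fshr was at 1.65 ± 0.15 and 1.57 ± 0.14, and Lhcgr at 0.123 ± 0.088 and 0.265 ± 0.047. Among genes tested, the percentage with a lower control level was 64.6 for Ghr, 60.2 for Prlr, 34.2 for Fshr and 5.39 for Lhcgr, and in DHT it was 71.6, 74.9, 33.7 and 12.8 in the same order.

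The order of levels was Ghr, Prlr, Fshr, Lhcgr in every control library. In DHT Prlr was above Ghr in all 3 libraries, with 11.7 to 13.3 RPKM against 9.82 to 11.5. That reversal depended on the length used. With the longest annotated transcript in place of all exons, Ghr was at 17.4 RPKM in control and 23.3 in DHT and Prlr at 10.4 and 19.2, so that Ghr was above Prlr in both groups. Within a library, the RPKM ratio of Prlr to Fshr was 3.98 to 4.09 in control and 7.06 to 9.18 in DHT. The ratio of Fshr to Lhcgr was 8.50 to 38.4 in control and 4.56 to 7.50 in DHT.

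**Figure D3:**
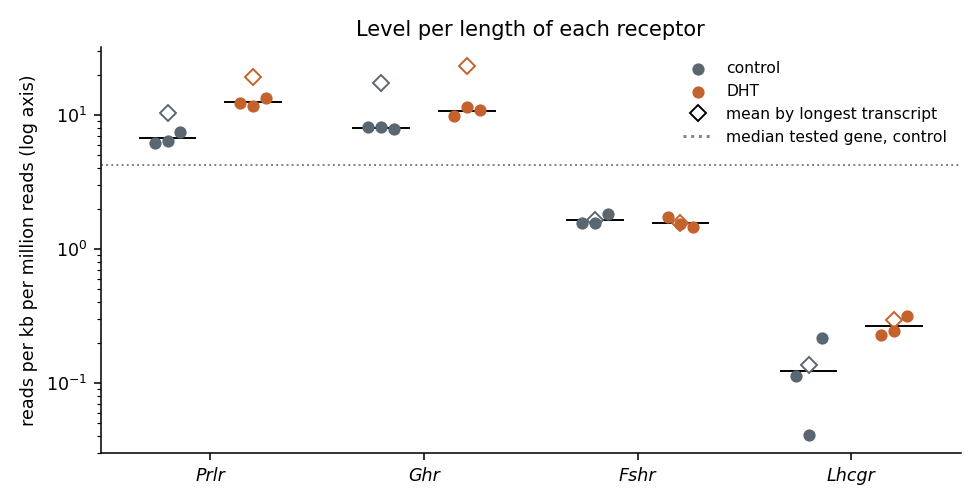
Level per length of each receptor (RPKM, log axis) in the control and DHT libraries (points, with a bar for the mean), with the mean by the longest transcript (diamonds) and the median tested gene in control (dotted line, 4.24 RPKM). Prlr and Ghr are above that median in every library, Fshr and Lhcgr below it, and the diamonds place Ghr above Prlr in both groups.

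The cell type of the libraries was checked against markers. Of 10 granulosa markers 9 were analysed and all were detected, and their summed normalized counts were 162229 to 180085 in control and 171333 to 179183 in DHT. Cyp19a1, the aromatase that converts androgen to estrogen, was not analysed here. Within the list Kitl, the KIT ligand that acts on the oocyte, and Inha, the inhibin alpha subunit, fell (log2 fold changes -0.85 and -0.61, adjusted p 0.00119 and 0.00162 in limma), as did Foxl2 (-0.15, 0.0490, past the threshold in 1 of 6 fits with a library left out). Hsd17b1 (0.48, 0.00442) and Serpine2 (0.43, 0.0245, kept in 3 of 6) rose.

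The marker sums of 3 lists of other cells did not overlap between groups. The 6 luteal markers summed to 184482 to 204526 normalized counts in control and 267957 to 309259 in DHT, and 4 of them rose. That sum was mostly Cyp11a1 (means 87825 in control and 123349 in DHT) and Hsd3b1 (77463 and 117731). Cyp11a1 is also among the FSH-responsive granulosa genes below. The 5 smooth muscle and pericyte markers analysed of 6 summed to 7617 to 11518 in control and 12924 to 13873 in DHT. Acta2, Myh11 and Cnn1 rose (0.76, 0.67 and 0.67 on the log2 scale), and passed in 6, 4 and 1 of 6 fits with a library left out. Mcam (-0.05, adjusted p 0.873 in limma) and Notch3 (0.24, 0.403) did not pass. Acta2 made up most of this sum, with means of 5399 in control and 9012 in DHT, and Mcam most of the rest, at 3993 and 3782. The theca sum, nearly all Aldh1a1, was 137377 to 158748 in control and 125760 to 128240 in DHT with no marker past the threshold, and the theca-defining Cyp17a1 and Insl3 were not analysed here. The part of these cells in the receptor values was not tested. In bulk RNA, more cells of a type and more transcript per cell cannot be told apart.

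The sums of the remaining lists overlapped between groups. They were 4014 to 4614 in control and 3311 to 4223 in DHT for 7 stromal markers, of which Ogn fell (-0.40, adjusted p 0.0145, kept in 4 of 6 fits with a library left out), and 471 to 546 and 362 to 605 for 4 of 6 immune markers, of which Csf1r fell (-0.64, 0.0270, kept in 3 of 6). They were 150.4 to 179 and 141 to 199 for 4 of 6 endothelial markers and 4036 to 4641 and 3161 to 4273 for 6 surface epithelium markers, with none past the threshold. The 7 oocyte markers summed to 347 to 807 in control and to 576, 117 and 606 in DHT, and the zona pellucida gene Zp3 was at 0 in DHT replicate 2. Lhcgr in that library, at 74.2, lay between the other two DHT libraries.

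Lhcgr is abundant in luteal cells, and the luteal markers were set beside it library by library. Ptgfr, the prostaglandin F2alpha receptor, held 222, 107 and 699 normalized counts in control and 979.5, 853 and 1168 in DHT. Its order over the control libraries was that of Lhcgr, with replicate 2 lowest and replicate 3 highest, and DHT replicate 3 was the highest library for both, but DHT replicates 1 and 2 stood in opposite order. Ptgfr was singled out after its values were seen. Star held 7323, 5877 and 7691 normalized counts in control and 7309.7, 8021 and 8298 in DHT, the order of Lhcgr within both groups, though over a far narrower range. Cyp11a1, Hsd3b1 and Akr1c18 were lowest among controls in replicate 3, and Sfrp4 in replicate 1. The Ptgfr log2 fold change was 1.95 ± 0.53 at an adjusted p of 0.0480 in limma, and it passed in 1 of 6 fits with a library left out. Hsd3b1 (0.60, adjusted p 0.000457), Sfrp4 (0.83, 0.000577) and Cyp11a1 (0.49, 0.00997) rose with far closer control libraries. Star, which carries cholesterol into mitochondria, was at 0.19 with an adjusted p of 0.255, and Akr1c18, which breaks down progesterone, at -0.01 with 0.981.

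**Figure D4:**
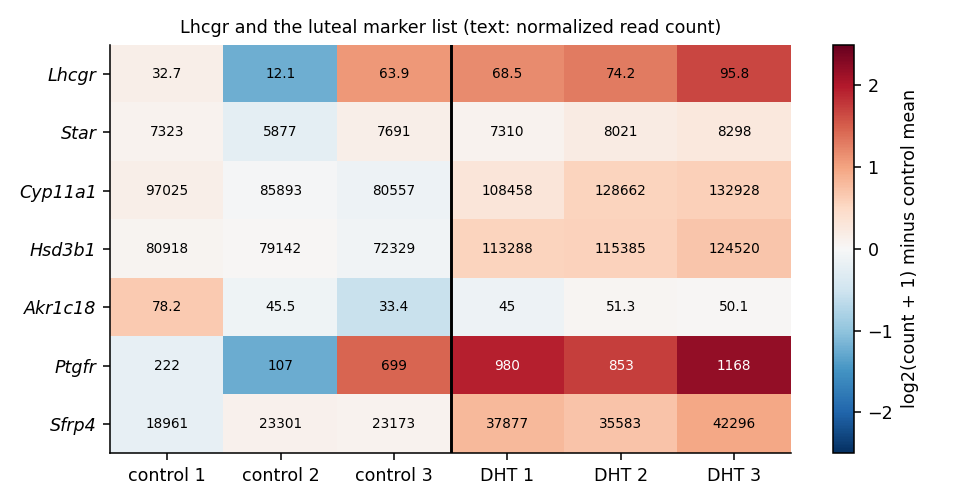
Lhcgr and the 6 luteal markers (rows) in the 6 libraries (columns), coloured by log2(count + 1) minus the mean of the control libraries, with the normalized read count written in each cell. Lhcgr, Ptgfr and, over a narrower range, Star share a low control replicate 2 and a high control replicate 3, Akr1c18 is lowest among controls in replicate 3, and Hsd3b1 and Sfrp4 separate the groups with little spread in control.

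Genes around the receptors were read from 10 lists of signalling partners, targets and relatives, chosen with earlier results of these data known. Of 105 genes tested in these lists, 31 passed an adjusted p of 0.05, 14 upward and 17 downward, which is 29.5% beside 11.2% of all genes. Their median log2 fold change was 0.02, beside -0.0052 for all genes. Of the 31, 17 passed in every fit with a library left out, and 12 under every alternative that tested them. The fewest passed in a fit without the intensity trend, 12 of the 31. Among genes for the hormones themselves, Pomc alone of 9 was analysed, and it did not pass (log2 fold change 0.27, adjusted p 0.533). FSH, LH, prolactin and growth hormone subunit genes were not analysed here.

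The machinery that couples and clears the gonadotropin receptors was mostly level. Of 14 genes tested of 15, 2 rose and none fell, with a median log2 fold change of 0.03 that ran from 0.01 without control replicate 2 to 0.05 without DHT replicate 1. Mvk, mevalonate kinase, which also binds Lhcgr mRNA and speeds its decay in the ovary, held 734, 756 and 828 normalized counts in control and 1221, 1344 and 1344 in DHT. Those groups were well apart, at 0.75 ± 0.064 and an adjusted p of 0.000196 in limma. Appl1, an adaptor that binds the FSH receptor, rose by a small step (0.17, adjusted p 0.0116, kept in 5 of 6 fits with a library left out). The G protein, arrestin and receptor kinase genes tested did not pass, Gnas, the stimulatory alpha subunit, included (0.11, 0.144).

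Genes known to follow FSH moved both ways. Of 11 tested of 12, 4 rose and 2 fell, with a median log2 fold change of 0.05. The median ran from -0.03 without control replicate 1 to 0.17 without control replicate 3, and was also below 0 without DHT replicate 1 (-0.02). The 4 became 2 without DHT replicate 2 or without DHT replicate 3, and 1 without the intensity trend. Sgk1, a kinase that FSH induces, held 14950.4, 15784 and 16798 normalized counts in control and 26137, 25785 and 29069.8 in DHT (0.77 ± 0.059, adjusted p 0.000118 in limma). Inha fell as given above, and Prkar2b, a regulatory subunit of protein kinase A that FSH raises in differentiating GCs, fell by 0.68 on the log2 scale (adjusted p 0.00254). Hsd17b1, which makes estradiol from estrone, rose (not past the threshold without the intensity trend), as did the cholesterol side-chain cleavage enzyme Cyp11a1 (kept in 4 of 6 fits with a library left out) and its electron donor Fdx1 (0.28, 0.0239, kept in 3 of 6).

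Genes of the LH surge included both rises and falls. Of 16 tested of 19, 3 rose and 4 fell, with a median log2 fold change of 0.24. Without control replicate 3 the counts were 7 and 3 with a median of 0.37, in the other 5 fits with a library left out 3 rose and 2 or 3 fell, and without the intensity trend 2 rose and 1 fell. Has2, which makes the hyaluronan of the expanding cumulus, held 273, 569 and 492 normalized counts in control and 2396, 1957 and 2008 in DHT. It had the largest change of all listed genes tested, at 2.31 ± 0.23 and an adjusted p of 0.000405 in limma. Pgr, the progesterone receptor that the LH surge induces and that ovulation needs, fell from 25.7, 31.6 and 25.9 to 8.81, 8.73 and 11.97 (-1.42 ± 0.27, adjusted p 0.00997). Has2 and Pgr passed in all 6 fits with a library left out.

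Runx1 (0.42, adjusted p 0.00773) and Cebpb (0.32, 0.00379), transcription factors of the ovulatory and luteal programmes, rose. Egr1 (-0.34, 0.00366) fell. Btc, an EGF-like ligand, also fell (-0.63, 0.0372), and passed in 1 of 6 fits with a library left out. Areg, Sult1e1 and Edn2 were not analysed here.

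**Figure D5:**
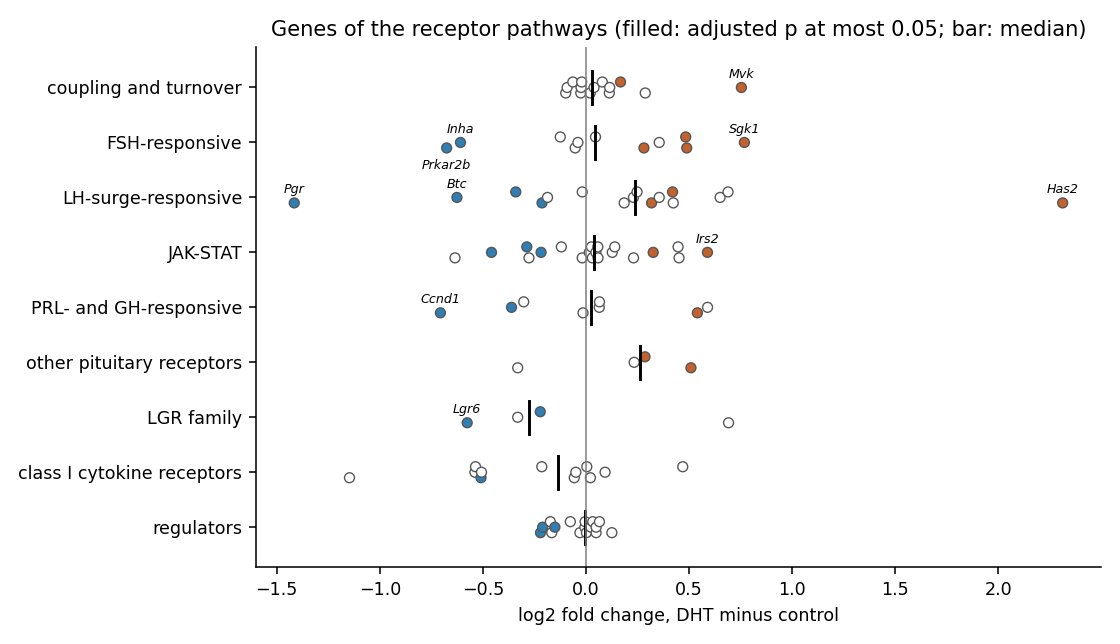
Log2 fold change, DHT minus control (x axis), of the listed genes of 9 lists (rows), with filled points for an adjusted p of at most 0.05 (orange up, blue down) and a bar for the median of each list. Most points lie near 0, with Has2 at 2.31 and Pgr at -1.42 the farthest filled points, and both directions occur in the FSH, LH, JAK-STAT and prolactin lists.

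Most of the transducers and inhibitors shared by Prlr and Ghr changed little in size. Of those past the threshold, Irs2 and Irs1 changed most. Of 20 JAK-STAT genes tested, 2 rose and 3 fell, with a median log2 fold change of 0.04. Both counts ran from 1 to 3 with a library left out, and both were 1 without DHT replicate 3 and without the intensity trend. Stat5a, the factor through which prolactin acts in luteal and mammary cells, held 8167, 7424 and 7722 normalized counts in control and 9258, 9848 and 10115.5 in DHT (0.33 ± 0.048, adjusted p 0.00307 in limma). Stat5b was at 0.14 with an adjusted p of 0.0522, and Jak2, the kinase both receptors carry, at -0.12 with 0.177. Of the insulin receptor substrates, Irs2 rose (0.59, 0.0224, kept in 1 of 6 fits with a library left out) and Irs1 fell (-0.46, 0.0136, kept in 5 of 6), and Jak1 fell (-0.22, 0.0215, kept in 1 of 6). The feedback inhibitors Socs1, Socs2, Socs3 and Cish did not pass.

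Of 8 genes tested of 10 that follow prolactin or growth hormone, 1 rose and 2 fell, with a median log2 fold change of 0.03. With a library left out the median ran from -0.06 without control replicate 3 to 0.02 without DHT replicate 3, and was below 0 without any 1 control library and without DHT replicate 1. The 2 falls were 1 in 5 of the 6 fits with a library left out, without control replicate 2 the exception. Hsd17b7, an enzyme of cholesterol and estradiol synthesis first known as a protein associated with the prolactin receptor, held 3629, 4004 and 3895 normalized counts in control and 5294, 5854 and 5621 in DHT (0.54 ± 0.051, adjusted p 0.000344 in limma). Esr2, the main estrogen receptor of GCs, fell (-0.36, 0.00149), and so did the cyclin gene Ccnd1 (-0.71, 0.0393, kept in 1 of 6 fits with a library left out). Igf1 did not pass.

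Relatives of the 4 receptors did not share one direction. Of 4 other pituitary hormone receptor genes tested of 11, Oxtr, the oxytocin receptor (0.51, adjusted p 0.00295), and Mrap, an accessory protein of melanocortin receptors (0.29, 0.00891), rose. In the leucine-rich repeat receptor family, which holds Fshr and Lhcgr, 4 of 6 were tested, and the R-spondin receptors Lgr6 (-0.58, 0.00742) and Lgr4 (-0.22, 0.0358, kept in 2 of 6 fits with a library left out) fell. In the class I cytokine receptor family, which holds Prlr and Ghr, 12 of 18 were tested, none rose, and Il4ra fell (-0.51, 0.0453, kept in 1 of 6). Of these relatives none that was tested had a rise as large as that of Prlr.

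Of 16 regulators named for the gonadotropin receptor genes, all tested, none rose and 3 fell. These were Foxo1 (-0.22, adjusted p 0.0302), Gata4 (-0.21, 0.0265) and Foxl2 (-0.15, 0.0490), which passed in 1, 2 and 1 of 6 fits with a library left out. None of the 16 fell without control replicate 2, without any 1 DHT library, or without the intensity trend.

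Genes next to the receptors moved little, apart from Lhcgr as a neighbour of Fshr. Their log2 fold changes ran from -0.39 to 0.22. Within 500 kb, 1 neighbour of each receptor passed an adjusted p of 0.05, of 4 tested for Fshr, 4 for Lhcgr, 5 for Ghr and 5 for Prlr, beside 11.2% of all genes, and Foxn2 counted for both Lhcgr and Fshr. With so few neighbours nothing is read from these counts. Foxn2 fell (-0.29, 0.0142), Oxct1 near Ghr rose (0.22, 0.0113) and Rai14 near Prlr fell (-0.27, 0.0249), and these passed in 4, 5 and 4 of 6 fits with a library left out. Exons of Prlr share 203 bases with Gm21973 on the same strand, which was not analysed here, and no source states how such reads were assigned.

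The genes whose log2 values followed each receptor most closely over the 6 libraries were sought among 12704 genes with a mean of at least 50. Brinp2 (Pearson's r 0.9997), Ctdspl (0.9995) and Stk40 (0.9992) were nearest to Prlr, and Myom1 (0.9989), Chd4 (0.9967) and Gm40038 (0.9962) to Ghr. Klf12 (0.9978), Gm16892 (0.9953) and Nr5a2 (0.9952) were nearest to Fshr, and Siah1a (0.9930), Endog (0.9899) and Zranb1 (0.9896) to Lhcgr. These are descriptions over 6 points that share the group difference and the libraries, picked as the highest of many. Likeness of pattern was not likeness of size. Brinp2 rose more than Prlr (1.30), while Stk40 was at 0.11 and Siah1a at 0.08.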

How the data were processed

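RNA was sequenced as 2x150 paired reads from 3 control and 3 DHT libraries. Per the labels' processing notes, the authors used Trimmomatic 0.36, STAR 2.5.2b on GRCm38 and featureCounts of Subread 1.5.2. The annotation release and strand setting are not given in the sources used here. The deposited signal of each gene and library is a read count divided by a DESeq2 size factor by the authors. The table's log2 fold change, p-value and adjusted p-value columns hold the authors' own comparison and were not used, and neither was a second table that holds a subset of its genes.

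Read numbers were obtained as whole multiples of a common step in each library (every value whole within 0.0001) and served for depth, RPKM and Poisson intervals. Totals were 38486526, 41366587 and 41928585 in control and 39777305, 36111177 and 36240461 in DHT. Since the deposited values are scaled, the test was limma (3.58.1, R 4.3.3) on log2(value + 1), its prior variance fitted as a trend on intensity. It covered the 16292 genes averaging 10 or more over the 6 libraries, and Benjamini-Hochberg adjustment ran over all of them. Adding 1 draws the fold changes of low genes toward 0, while means on the log scale give weight to single low libraries. The Lhcgr estimate leaned on such a library, and its log2 fold change was 0.77 without control replicate 2. A gene passed where its adjusted p did not exceed 0.05, and was called where its absolute log2 fold change also exceeded 1. Fits were tested on simulated data. Exon lengths and positions came from GENCODE M21, promoter windows from RefSeq (GRCm38.p6). Groups came from the treatment characteristic, since the free text names DHT for every sample. Of 184 listed gene names 147 were found. Alternatives were pseudocounts, filters, scalings, no trend, the replicate number as a block and each library left out. The members and lists were chosen with earlier results of these data known. From each list, at most 6 genes past the threshold were named by size of change, then genes of high mean, and a few further genes (Pomc, Gnas, Stat5b, Jak2, Cish, Igf1, Star, Akr1c18 and the Socs genes) were chosen for their role after their values were seen. Some listed genes are counted but not reported here by name.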

Additional observations from a re-analysis of the deposited data

How the results depend on the processing

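Prlr and Ghr passed an adjusted p of 0.05 under all 14 alternatives, with log2 fold changes of 0.86 to 1.01 and 0.39 to 0.51 and adjusted p up to 0.0158 and 0.0348, both without the intensity trend. Fshr passed under none, ran from -0.11 to 0.04 with a library left out, and was above 0 without control replicate 3 (0.038) and without DHT replicate 3 (0.0087). Lhcgr ran from 0.77 to 1.92 with a library left out and from 1.16 to 1.40 otherwise, and passed only without control replicate 3 (1.92, adjusted p 0.0101), with adjusted p from 0.0101 to 0.286 over all 14. The cause was not tested. The Prlr minus Lhcgr difference, recomputed under 10 alternatives added after the data were seen, ran from -0.91 to 0.12 with a library left out and turned to 0.12 without control replicate 2, and the other 5 pairs kept their direction. By the longest transcript, Prlr was at 10.4 RPKM in control and 19.2 in DHT and Ghr at 17.4 and 23.3.

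Of all genes, 213 were called, 148 higher and 65 lower. This became 131 with a mean of at least 50, where 12705 genes were tested, and 138 to 286 with a library left out, with 138 without DHT replicate 3. In a fit with a replicate block, 157 genes were called and the adjusted p were 0.000373 for Prlr, 0.00728 for Ghr, 0.0862 for Lhcgr and 0.904 for Fshr, so no receptor changed sides of the threshold. The deviations of same-numbered libraries had correlations of 0.0058, 0.067 and -0.24, and the numbers were not taken to pair samples. Akr1c18 ran from -0.29 to 0.31 with a library left out and was above 0 without control replicate 1 (0.31) and without DHT replicate 1 (0.041). The planned count-model alternatives were left out, although whole reads could be obtained from the scaled values, so their effect is not known. Lhcgr had 13 to 88 reads a library.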
